A study of Mus musculus with 12 samples.

Results

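The 10 genes described here encode the cyclins and cyclin-dependent kinases (CDKs) that carry mouse cells from G1 into S phase and on to mitosis, with 1 of their inhibitors. The set is defined by gene symbol and holds *Ccnd1*, *Ccnd2*, *Ccnd3*, *Ccne1*, *Ccne2*, *Ccna2*, *Ccnb1*, *Cdk4*, *Cdk6* and *Cdkn1b*. They are 10 of 57180 annotated genes, and all 10 were among the 25446 genes that passed the filter on low counts. RNA was sequenced from 12 libraries, 3 for each of 4 groups. The groups crossed 2 lines of E14 mouse embryonic stem cells (ESCs) with 2 pluripotent states. The study asked what the loss of 3 enzymes of pyruvate metabolism does in each state and on the way between them.

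Both lines descended from 1 chosen E14 clone that makes a repressor fused to inactive Cas9 when doxycycline (DOX) is added, and guide RNAs bring it to the start site of a gene (CRISPR interference). Neg cells carried 4 scramble guides and 3xKD cells carried 3 guides, against *Pcx* (pyruvate carboxylase) and *Me1* and *Me2* (malic enzymes). Guides were inserted with the PiggyBac transposase. Selection with puromycin, blasticidin and hygromycin was kept on in every group, so the controls shared the repressor, the drugs and the guide cassette. ESCs were kept in N2B27 medium with 2iLIF (2 kinase inhibitors and leukaemia inhibitory factor), which holds them in the naive state. EpiLCs, or epiblast-like cells, were taken on day 2 of culture in FAX medium (Fgf2, Activin A and the tankyrase inhibitor XAV939), which moves them to a formative state. By the study's methods, DOX was given for 24 hours before and for the 48 hours after that split. The labels do not give the drug for single libraries. The methods describe the libraries as biological triplicates, and each line is 1 guide combination in 1 clone, so the line and the knockdown cannot be told apart.

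In G1, D-type cyclins (*Ccnd1*, *Ccnd2*, *Ccnd3*) bind the kinases CDK4 and CDK6 and start the phosphorylation of the retinoblastoma protein, which frees E2F factors to switch on genes of S phase. E-type cyclins (*Ccne1*, *Ccne2*) then activate CDK2 at the G1/S boundary, cyclin A2 acts in S and G2 phase, cyclin B1 drives mitosis with CDK1, and p27, the product of *Cdkn1b*, binds and restrains cyclin-CDK complexes. Mouse ESCs are known for a short G1 phase and for high activity of cyclin E with CDK2.

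Each library held between 11221023 and 19652197 estimated counts assigned to genes. Levels are given in CPM, counts scaled to the library total after TMM normalization. In ESCs the mean of *Pcx* was 36.2 CPM in Neg and 16.4 in 3xKD, that of *Me1* 69.2 and 37.3, and that of *Me2* 101 and 52.3. In EpiLCs the means of *Pcx* were 51.0 and 24.6, those of *Me1* 34.8 and 16.8, and those of *Me2* 70.9 and 36.0, so all 3 targets were lower in 3xKD in both states. Naive markers summed to 5687 to 5850 CPM in Neg ESCs and 470 to 490 in Neg EpiLCs, and to 4276 to 4351 and 577 to 599 in the corresponding 3xKD groups. Formative markers summed to 293 to 306 CPM in Neg ESCs, 325 to 332 in 3xKD ESCs, 3236 to 3634 in Neg EpiLCs and 1831 to 1896 in 3xKD EpiLCs. The marker levels fitted the states that the sample titles give. Within the states, 3xKD ESCs sat lower on the naive list than Neg ESCs, and 3xKD EpiLCs lower on the formative list than Neg EpiLCs. The part of these differences in the values below was not tested. Markers of neural, endoderm, trophoblast, mesoderm and fibroblast cells each summed to at most 49.6 CPM, and *Postn* and *Lum* among the fibroblast markers were at 0 in every library. In both comparisons of the lines the median log2 fold change was 0.30 on chromosome 16 and −2.59 on chromosome Y, and no gene of the 10 lies on either. The genes of the cell cycle lists below were not checked for their chromosomes.

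The first check on the cyclins was how closely the knockdown guides match sequence near their start sites. The 19 bases of each guide were compared with sites beside an NGG motif. Written from 5′ to 3′ in lower case, the guides against *Pcx* and *Me1* are followed here by their closest sites within 1000 bases of a *Ccnd1* start, with mismatched bases in capitals, because *Ccnd1* had the largest difference between the lines.
Pcx guide: aggcaggggccgtcagagg
Closest site to the Pcx guide at Ccnd1: GggcagggAGcgGcagTAg
Me1 guide: gagaagcgctgagtcacgg
Closest site to the Me1 guide at Ccnd1: AaATCgTgGGgagtcaTgg
The *Pcx* guide matched its own target without a mismatch at chr19:4560559-4560577 (GRCm39, plus strand), 13 bases from a start site in an untranslated part of an exon. The *Me1* guide did so at chr9:86577958-86577976 (plus strand), 3 bases from a start site, also in an untranslated part of an exon. At *Ccnd1* the closest site to the *Pcx* guide had 6 mismatches and lay in an intron at chr7:144492731-144492749 (minus strand), 806 bases from a start. The closest site to the *Me1* guide had 8 mismatches and lay in a coding exon at chr7:144491126-144491144 (plus strand), 799 bases from a start. Over all 10 genes the 3 knockdown guides had at least 5 mismatches at their closest sites, the fewest being 5 for the *Me2* guide at *Cdk6*. A scramble guide of the Neg line also had 5, at *Ccne1*. Sites farther than 1000 bases from a start were not searched, the position of mismatches was not weighed, and repression through a mismatched site was not tested.

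Differences are given as log2 fold changes with their standard errors (SE) from the quasi-likelihood test of edgeR, with adjustment by Benjamini-Hochberg over all 25446 genes. A gene was called when its adjusted p was under 0.01 and its log2 fold change was over 0.58 in size. In ESCs, 2 of the 10 genes were called higher in 3xKD than in Neg (*Ccnd3* and *Cdkn1b*) and 2 lower (*Ccnd1* and *Cdk6*). In EpiLCs 1 was called higher (*Cdkn1b*) and 2 lower (*Ccnd1* and *Ccnd2*). Over all genes tested, 15.3% were called in ESCs (8.50% higher and 6.76% lower) and 13.2% in EpiLCs (7.88% higher and 5.35% lower). The median log2 fold change of the 10 genes was −0.02 in ESCs and −0.05 in EpiLCs, against 0.03 over all genes in each state. In bulk RNA, fewer cells in a phase of the cycle and less RNA per cell cannot be told apart.

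**Figure D1:**
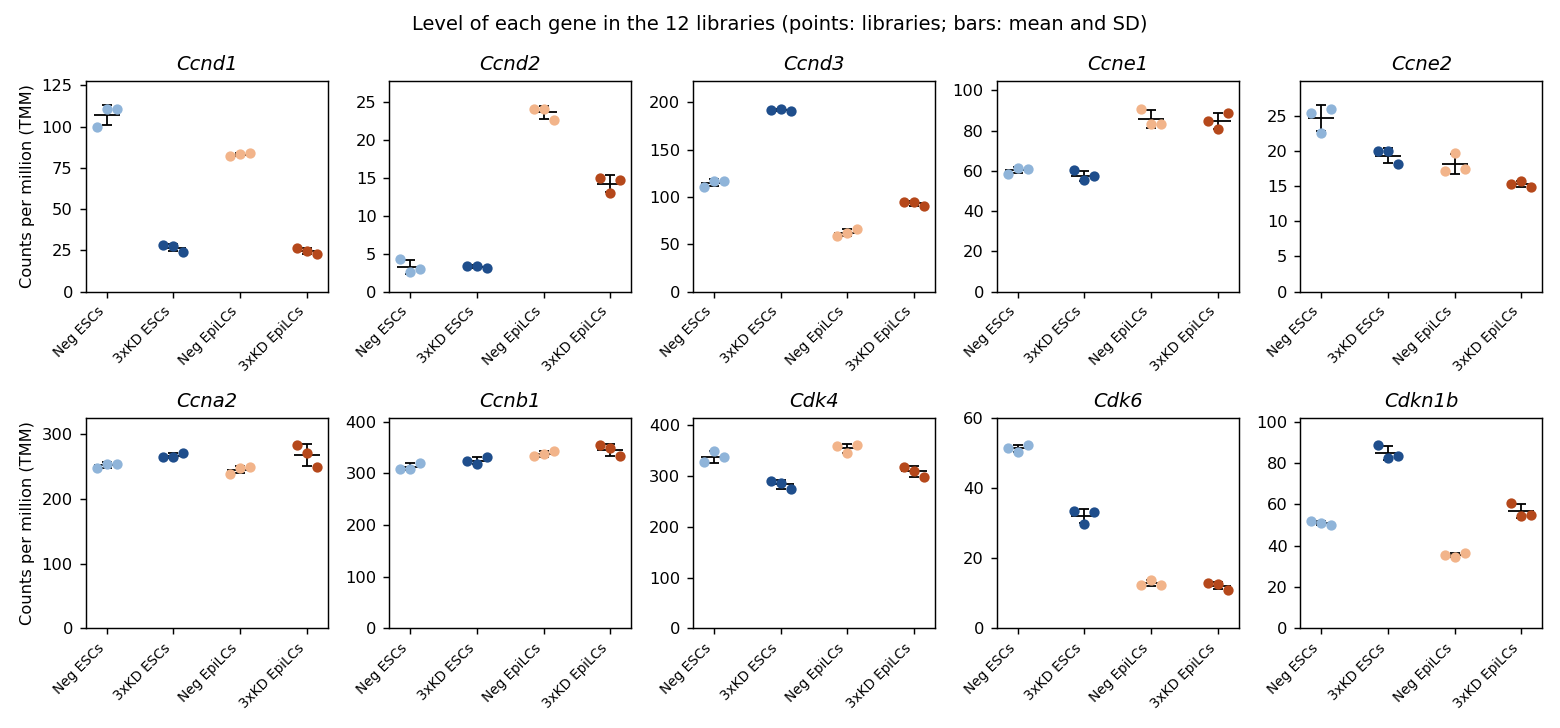
Level of each of the 10 genes in every library, in CPM after TMM normalization on an axis from 0, with points for libraries and bars for the mean and SD of the 3 libraries of a group. For *Ccnd1* all 6 3xKD libraries sit between 22.9 and 28.01, under all 6 Neg libraries, while *Ccna2* and *Ccnb1* are at similar heights in the 4 groups.

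Among the D-type cyclins, *Ccnd1* (chr7:144483668-144493662, GRCm39, minus strand) encodes cyclin D1, the D-type cyclin best known as a target of growth factor signals. In Neg ESCs it stood at 100.1, 111 and 111 CPM, and in 3xKD ESCs at 28.01, 27.7 and 24.2 CPM. Neg EpiLCs held 82.1, 83.3 and 83.9 CPM and 3xKD EpiLCs 26.6, 24.9 and 22.9 CPM. Every 3xKD library was lower than every Neg library, in both states, and the 2 sets of 3xKD libraries overlapped each other. *Ccnd1* fell by 2.01 on the log2 scale in ESCs (SE 0.0627, adjusted p = 1.4e-12), a level 4.02-fold lower. In EpiLCs the log2 fold change was −1.74 (SE 0.0634, adjusted p = 6.2e-12), a level 3.35-fold lower. The change in ESCs and that in EpiLCs differed by 0.26 log2 units, which did not pass the test of the difference (adjusted p = 0.056).

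*LTO1*, a gene of ribosome biogenesis on the opposite strand, shares 2315 bases of transcript with *Ccnd1*. The libraries were made with a directional kit, but the strand setting of the counting is not given in the sources used here, so part of the reads may be shared between the pair. *LTO1* stood at 19.0 CPM in Neg ESCs and 13.4 CPM in 3xKD ESCs, with log2 fold changes of −0.51 in ESCs and −0.60 in EpiLCs, and was thus less abundant and less changed than *Ccnd1*. Of the 9 other tested genes that start within 500000 bases of *Ccnd1*, 2 were called higher and 2 lower in 3xKD ESCs, and 1 higher and 4 lower in 3xKD EpiLCs. Their median log2 fold changes were −0.16 and −0.60, against −2.01 and −1.74 for *Ccnd1* itself.

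*Ccnd2* (chr6:127102125-127129156, minus strand) encodes cyclin D2 and was the D-type cyclin that marked the exit from the naive state. Neg ESCs held 4.34, 2.62 and 2.96 CPM, from 38 to 58 counts, and Neg EpiLCs held 24.1, 24.2 and 22.7 CPM. The 3xKD ESCs held 3.44, 3.35 and 3.07 CPM and the 3xKD EpiLCs 15.0, 13.0 and 14.7 CPM. The ESC groups overlapped, every EpiLC library was higher than every ESC library, and every 3xKD EpiLC library was lower than every Neg EpiLC library. From ESCs to EpiLCs *Ccnd2* rose 7.31-fold in Neg (log2 fold change 2.87, SE 0.131, adjusted p = 1.2e-11) and 4.32-fold in 3xKD (2.11, SE 0.132, adjusted p = 9.4e-10). In EpiLCs it was lower in 3xKD than in Neg by a log2 fold change of −0.73 (SE 0.109, adjusted p = 3.8e-05), while in ESCs the value was 0.03 (adjusted p = 0.92). With the estimated transcript lengths entered as offsets, the value in EpiLCs was −2.31 with an adjusted p of 0.013, which was not called. Without the offsets, the difference between states was −0.76 (SE 0.191) with an adjusted p of 0.011, which missed the limit. That difference passed with an adjusted p of 0.00055 when Neg ESC replicate 1, the library with the highest *Ccnd2* among ESCs, was left out. With the offsets the difference was −1.22 with an adjusted p of 0.52.

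*Ccnd3* (chr17:47815767-47910624, plus strand) encodes cyclin D3, and it moved the opposite way to *Ccnd1* between the lines. Neg ESCs held 111, 117 and 117 CPM, and 3xKD ESCs 192, 193.5 and 191 CPM. Neg EpiLCs held 59.0, 62.2 and 66.2 CPM and 3xKD EpiLCs 94.3, 95.3 and 90.04 CPM. No 2 of the 4 groups overlapped, with 3xKD ESCs highest and Neg EpiLCs lowest. *Ccnd3* rose 1.67-fold in 3xKD ESCs (log2 fold change 0.74, SE 0.0406, adjusted p = 4.3e-10). In EpiLCs the log2 fold change was 0.58 (SE 0.0430, adjusted p = 1.5e-08), which at 0.5769 lay just under the limit on size and was not called. It passed that limit with DESeq2 and with each other scaling, and without 3xKD ESC replicate 1 (0.58), Neg EpiLC replicate 2 (0.58), Neg EpiLC replicate 3 (0.62) or 3xKD EpiLC replicate 3 (0.60). The gene fell by 0.88 on the log2 scale from Neg ESCs to Neg EpiLCs (SE 0.0428, adjusted p = 2.7e-11) and by 1.04 in 3xKD (SE 0.0410, adjusted p = 2.5e-12).

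The estimated transcript lengths of *Ccnd3* were unsteady, with an average effective length of 742 to 1583 bases among the Neg ESC libraries. When these lengths were entered as offsets, so that the test compared molecules rather than reads, the log2 fold change in ESCs was 0.36 (adjusted p = 0.29) and that in EpiLCs 1.02 (adjusted p = 0.0063). The call in ESCs was thus lost and one in EpiLCs gained. The decrease over the transition had −1.21 in Neg (adjusted p = 0.0014), still called, and −0.55 in 3xKD (adjusted p = 0.09), no longer called. *Bysl*, which shares 369 bases with *Ccnd3* on the opposite strand, had a log2 fold change of −0.57 in both states, against the direction of *Ccnd3*.

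To compare the D-type cyclins with each other, CPM were divided by the length in kilobases of the longest coding transcript, which is 3740 bases for *Ccnd1*, 6330 for *Ccnd2* and 2113 for *Ccnd3*. This scale was chosen after the values were seen. *Ccnd1* made up 34.3% ± 0.674 (SD, n = 3) of the D-type cyclin mRNA in Neg ESCs and 7.23% ± 0.493 in 3xKD ESCs. *Ccnd3* made up 65.1% ± 0.474 and 92.3% ± 0.518. In EpiLCs the share of *Ccnd1* was 40.0% ± 0.900 in Neg and 12.5% ± 0.584 in 3xKD, and that of *Ccnd3* 53.2% ± 1.33 and 83.3% ± 0.679. *Ccnd2* held 0.629% in Neg ESCs and 0.527% in 3xKD ESCs, but 6.74% in Neg EpiLCs and 4.25% in 3xKD EpiLCs. *Ccnd3* was thus the leading D-type cyclin message in every library on this scale, with a larger share in every 3xKD library than in any Neg library. By the exact two-sided permutation test the share of *Ccnd1* and that of *Ccnd3* had p = 0.1 in each comparison of the lines, the smallest value that 3 against 3 libraries allow, and 0.118 after adjustment over 20 comparisons.

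On the deposited TPM scale, which corrects each transcript for its effective length, the share of *Ccnd1* was 27.0% ± 7.77 in Neg ESCs, 5.82% in 3xKD ESCs, 31.0% in Neg EpiLCs and 7.69% in 3xKD EpiLCs. On the same scale *Ccnd3* held 71.4%, 93.5%, 43.5% and 86.8% in those groups, so the direction between the lines was the same. The TPM share of *Ccnd2* was 25.5% ± 15.4 in Neg EpiLCs, with 40.9%, 25.5% and 10.1% in the 3 libraries. In Neg EpiLC replicate 1 *Ccnd3* held 32.4%, less than *Ccnd2*, so on this scale *Ccnd3* did not lead in every library.

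**Figure D2:**
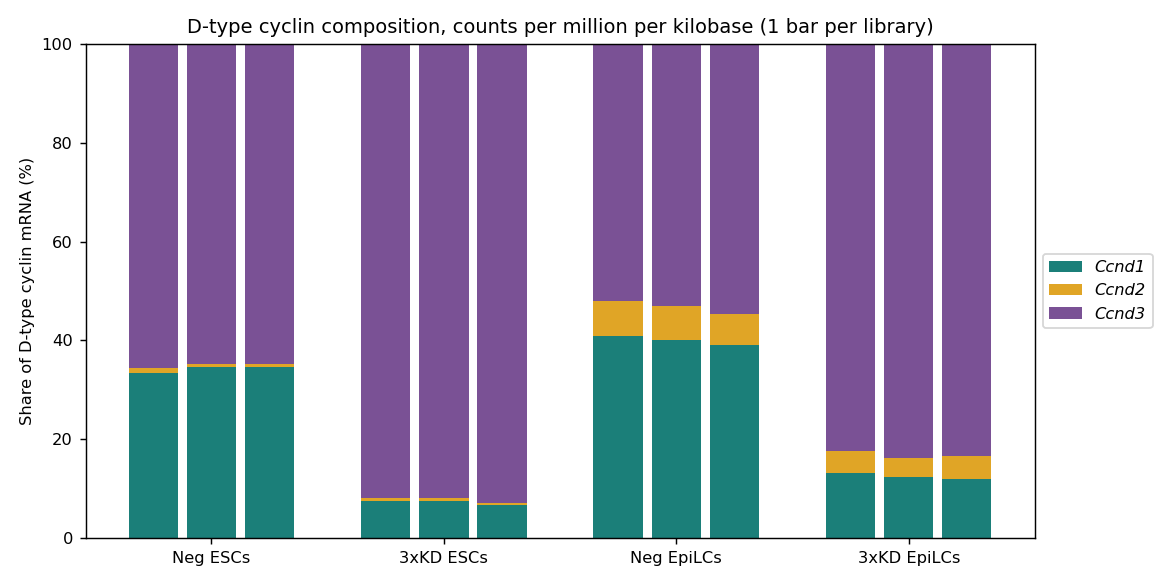
Composition of D-type cyclin mRNA, as the percentage of the summed CPM per kilobase, with 1 stacked bar per library. *Ccnd1* takes 33.5% to 34.7% of each bar in Neg ESCs and 6.66% to 7.56% in 3xKD ESCs, and *Ccnd2* is visible in EpiLCs of both lines.

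The E-type cyclins differed less between the lines than *Ccnd1* did. *Ccne1* (chr7:37797404-37808264, minus strand) encodes cyclin E1 and held 58.7, 61.4 and 60.8 CPM in Neg ESCs against 60.2, 55.2 and 57.2 in 3xKD ESCs. Neg EpiLCs held 91.0, 83.1 and 83.3 CPM and 3xKD EpiLCs 84.7, 80.8 and 88.7. The lines overlapped in both states, and every EpiLC library was higher than every ESC library. The log2 fold change of 3xKD against Neg was −0.07 in ESCs (adjusted p = 0.32) and −0.02 in EpiLCs (adjusted p = 0.82). From ESCs to EpiLCs it was 0.51 in Neg (SE 0.0495, adjusted p = 2.1e-07) and 0.56 in 3xKD (adjusted p = 7.8e-08), both under the limit on size. The value in 3xKD passed it without 3xKD ESC replicate 1 (0.60) or 3xKD EpiLC replicate 2 (0.59). *Ccne2* (chr4:11190303-11204947, plus strand), for cyclin E2, held 25.4, 22.5 and 26 CPM in Neg ESCs and 19.9, 19.9 and 18.1 in 3xKD ESCs. Neg EpiLCs held 17.2, 19.7 and 17.4 CPM and 3xKD EpiLCs 15.3, 15.7 and 14.8. In each state every 3xKD library was under every Neg library, with log2 fold changes of −0.35 in ESCs (SE 0.0764, adjusted p = 0.0013) and −0.24 in EpiLCs (SE 0.0794, adjusted p = 0.023), neither of them called.

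The cyclins of S phase and mitosis were near level over the 4 groups. *Ccna2* (chr3:36619014-36626299, minus strand) encodes cyclin A2, with means of 252 ± 4.2 CPM in Neg ESCs, 266 ± 3.37 in 3xKD ESCs, 244 ± 5.25 in Neg EpiLCs and 267 ± 17.2 in 3xKD EpiLCs (SD, n = 3). *Ccnb1* (chr13:100915153-100923116, minus strand) encodes cyclin B1, with means of 312 ± 6.93, 324 ± 6.94, 338 ± 5.62 and 345 ± 11.03 CPM in the same order. Their log2 fold changes lay between −0.04 and 0.13 in the 4 comparisons, and none passed an adjusted p of 0.01. *Ccnb1* has pseudogene copies, and their mean level was at most 0.585 CPM.

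*Cdk4* (chr10:126895180-126903789, plus strand), a catalytic partner of the D-type cyclins, held 327, 349 and 336 CPM in Neg ESCs and 291, 287 and 274 in 3xKD ESCs. Neg EpiLCs held 359, 345 and 360.4 CPM and 3xKD EpiLCs 318, 311 and 297. Within each state all 3xKD libraries lay below all Neg libraries. The log2 fold changes were −0.25 in ESCs (SE 0.0372, adjusted p = 3.7e-05) and −0.20 in EpiLCs (SE 0.0370, adjusted p = 0.00033), which passed the limit on p but not that on size. Counting genes whose groups did not overlap, 7 of the 10 separated the lines in ESCs and 7 in EpiLCs. Among all genes tested 49.0% did so in ESCs and 47.2% in EpiLCs.

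*Cdk6* (chr5:3391485-3581008, plus strand), the other kinase that D-type cyclins bind, was the gene with the strongest decrease from ESCs to EpiLCs. Neg ESCs held 51.5, 50.5 and 52.4 CPM and 3xKD ESCs 33.6, 29.9 and 33.2 CPM. Neg EpiLCs held 12.4, 13.8 and 12.4 CPM and 3xKD EpiLCs 12.9, 12.7 and 11.1 CPM. The lines were apart in ESCs and overlapped in EpiLCs, and every ESC library was above every EpiLC library. *Cdk6* fell by 0.68 on the log2 scale in 3xKD ESCs (SE 0.0647, adjusted p = 2.7e-07), while in EpiLCs the value was −0.07 (adjusted p = 0.54). The difference between states was 0.60 (SE 0.101, adjusted p = 0.00048), and *Cdk6* was the only gene of the 10 that passed this test, which 10% of all genes passed. From ESCs to EpiLCs *Cdk6* was 4-fold lower in Neg (log2 fold change −2.00, SE 0.0708, adjusted p = 4.3e-13) and 2.63-fold lower in 3xKD (−1.40, SE 0.0721, adjusted p = 8.3e-11).

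The reads of *Cdk6* were divided differently among its transcripts in the 2 lines, a pattern noticed after the values were seen. The 11525-base transcript (ENSMUST00000165117) took 81.5%, 83.9% and 81.2% of the estimated counts of the gene in Neg ESCs, and 50.9%, 51.6% and 52.7% in 3xKD ESCs. In EpiLCs it took 78.5%, 84.7% and 87.4% in Neg and 51.3%, 55.4% and 45.6% in 3xKD. The 2 lines did not overlap in either state, and within a line the states did. A 2470-base transcript (ENSMUST00000042410) took 12.1% ± 1.34 in Neg ESCs against 35.4% ± 1.61 in 3xKD ESCs, and 12.7% ± 4.71 against 35.1% ± 2.89 in EpiLCs. In CPM, the long transcript went from 42.3 ± 0.296 in Neg ESCs to 16.7 ± 1.1 in 3xKD ESCs, and the 2470-base one from 6.23 ± 0.780 to 11.4 ± 1.22. In the GENCODE vM39 annotation both carry the same 981 coding bases, stop codon included. That release gives the 2470-base transcript a length of 11657 bases, so the annotations differ on the shorter form, and it gives the long one 10217 bases after the stop codon. For each of the shares above, the exact two-sided permutation test of 3xKD against Neg gave p = 0.1, the smallest it allows, and 0.37 after adjustment over 100 comparisons of 25 transcripts.

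Long transcripts give more reads per molecule than short ones, so the division bears on the *Cdk6* values. The average effective transcript length of the gene was 2947 to 3333 bases in Neg ESCs and 1614 to 1848 in 3xKD ESCs, and 2452 to 4595 against 1385 to 2039 in EpiLCs. With these lengths as offsets, the log2 fold change of *Cdk6* was 0.19 in ESCs (adjusted p = 0.56) and 0.89 in EpiLCs (adjusted p = 0.0096, called higher), and the difference between states no longer passed (0.70, adjusted p = 0.22). The direction of *Cdk6* between the lines thus depends on whether reads are corrected by these lengths, and the decrease from ESCs to EpiLCs does not. With the offsets that decrease had log2 fold changes of −2.06 in Neg (adjusted p = 1.1e-05) and −1.36 in 3xKD (adjusted p = 0.00037). The lengths used rest on 2470 bases for ENSMUST00000042410, to which GENCODE vM39 gives 11657 bases. Offsets with the lengths of that release were not tested, so the corrected values hold only for the deposited lengths.

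**Figure D3:**
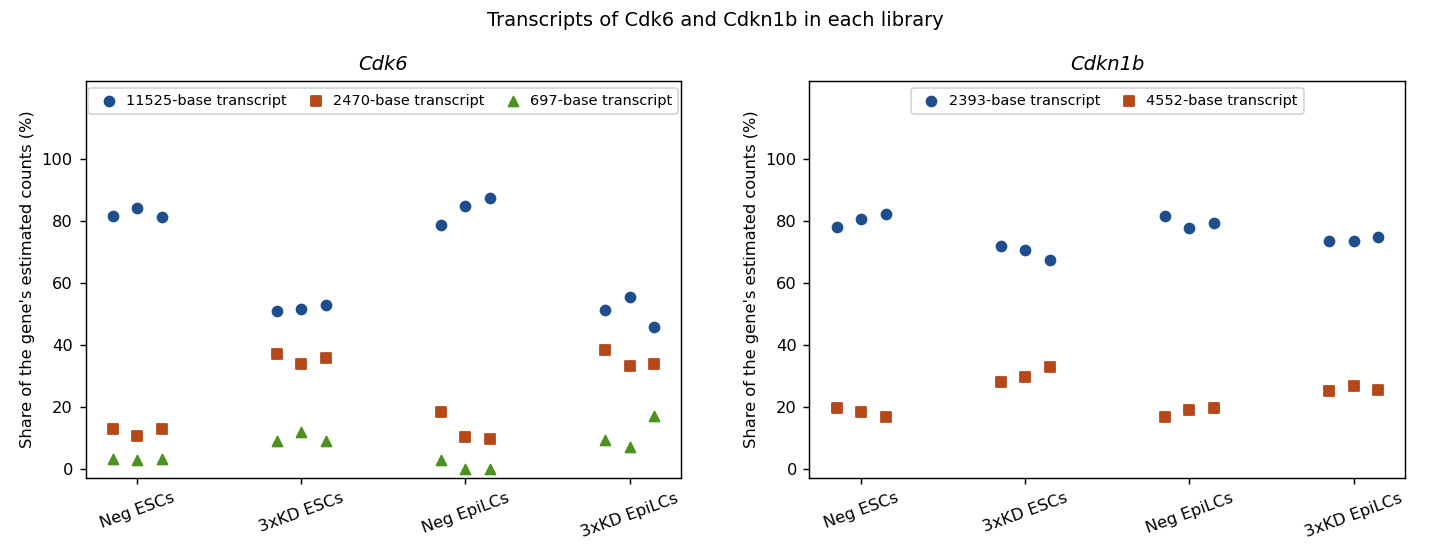
Share of the estimated counts of *Cdk6* and *Cdkn1b*, in percent, given to each of their main transcripts in each library, with 3 points per group. The 11525-base *Cdk6* transcript sits at 78.5% or more in every Neg library and at 55.4% or less in every 3xKD library, and the 4552-base *Cdkn1b* transcript is higher in every 3xKD library.

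*Cdkn1b* (chr6:134897364-134902476, plus strand), the gene of the inhibitor p27, was higher in the knockdown line in both states. Neg ESCs held 52.0, 51.1 and 50.2 CPM and 3xKD ESCs 88.7, 82.3 and 83.4 CPM. Neg EpiLCs held 35.7, 34.7 and 36.5 CPM and 3xKD EpiLCs 60.5, 54.2 and 55.1 CPM. Each 3xKD library was above every Neg library, the other state included. *Cdkn1b* rose 1.66-fold in 3xKD ESCs (log2 fold change 0.73, SE 0.0485, adjusted p = 3.6e-09) and 1.59-fold in 3xKD EpiLCs (0.67, SE 0.0505, adjusted p = 1.8e-08). The difference between states did not pass the test. From ESCs to EpiLCs the log2 fold change was −0.52 in Neg (adjusted p = 2.3e-07), short of the limit on size, and −0.58 in 3xKD (SE 0.0478, adjusted p = 3.1e-08), which at −0.5831 was just past it. The call in 3xKD was lost with each other scaling and filter and with DESeq2 (−0.51 to −0.57). It was also lost without 3xKD ESC replicate 1 (−0.54), Neg EpiLC replicate 1 or 2 (−0.57 each), 3xKD EpiLC replicate 2 (−0.55) or 3xKD EpiLC replicate 3 (−0.55).

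Both main *Cdkn1b* transcripts were higher in 3xKD, the longer one more so. The 4552-base transcript (ENSMUST00000067327) took 19.5%, 18.4% and 16.6% of the estimated counts of the gene in Neg ESCs and 27.9%, 29.5% and 32.6% in 3xKD ESCs. In EpiLCs it took 16.6%, 19.1% and 19.6% in Neg and 25.1%, 26.6% and 25.3% in 3xKD, again with no overlap between the lines. In each state the exact two-sided permutation test gave p = 0.1, the smallest possible, and 0.37 after adjustment over 100 comparisons. In CPM it went from 9.30 ± 0.896 to 25.4 ± 1.60 in ESCs, while the 2393-base transcript (ENSMUST00000003115) went from 41.0 ± 0.381 to 59.3 ± 3.85. In EpiLCs the longer transcript went from 6.57 ± 0.623 to 14.5 ± 0.625 CPM and the shorter from 28.3 ± 1.18 to 41.8 ± 2.39. The transcripts share their 594 coding bases. The longer one keeps 2159 bases at chr6:134899047-134901205 (GRCm39) that are spliced out of the shorter, so that 3439 bases follow the stop codon instead of 1280.

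**Figure D4:**
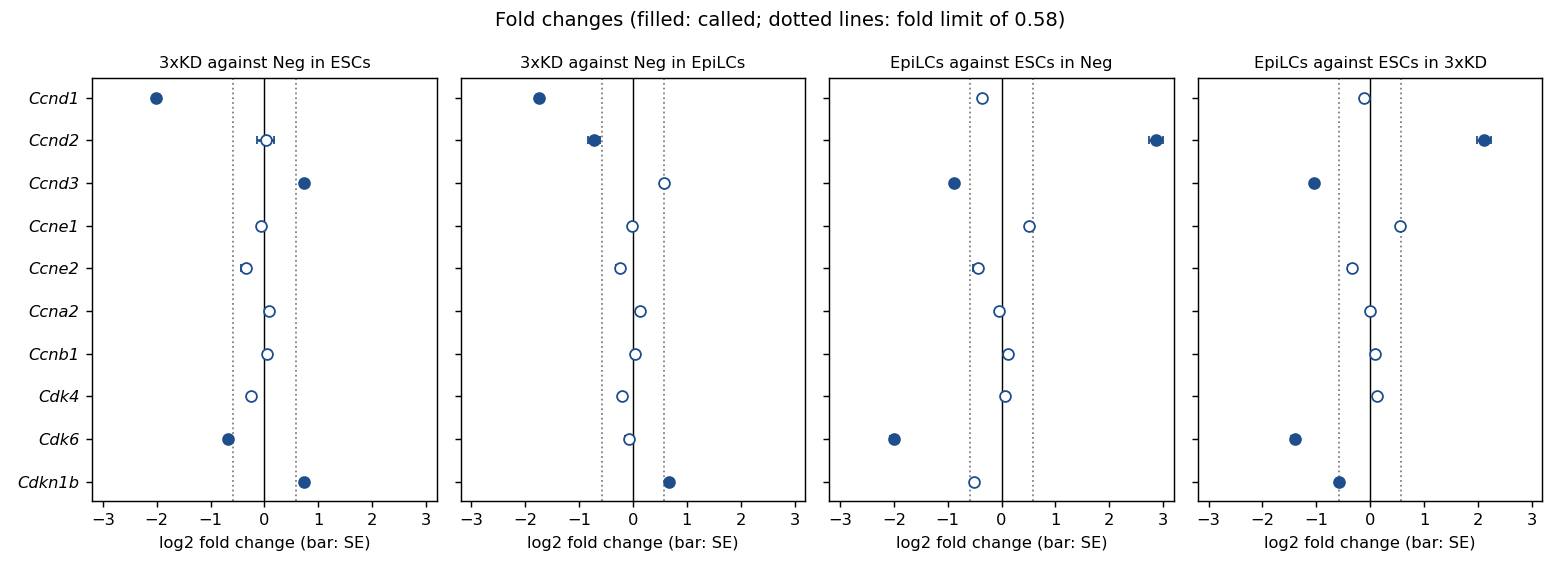
Log2 fold changes of the 10 genes in the 4 comparisons, with bars for the SE, filled points for called genes and dotted lines at the limit of 0.58. *Ccnd1* is called lower in 3xKD in both states and *Ccnd2* is called higher in EpiLCs in both lines, while *Ccna2* and *Ccnb1* lie near 0 in all 4.

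During the step from ESCs to EpiLCs in Neg, 1 gene of the 10 was called higher (*Ccnd2*) and 2 lower (*Ccnd3* and *Cdk6*), where 20.8% of all genes were called, 9.78% higher and 11% lower. In 3xKD, 1 was called higher (*Ccnd2*) and 3 lower (*Ccnd3*, *Cdk6* and *Cdkn1b*), where 18.7% of all genes were called, 9.42% higher and 9.32% lower. In each line 8 of the 10 genes did not overlap between the states, against 51.7% of all genes in each. *Ccnd1* had a log2 fold change of −0.37 in Neg (adjusted p = 4.3e-05) and of −0.11 in 3xKD (adjusted p = 0.24), neither called. The comparisons of lines and of states share libraries, so their values are given side by side and not counted as separate evidence.

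Dividing CPM by the longest coding transcript also allowed the 10 genes to be ranked within a group. In Neg ESCs the order of the levels, in CPM per kilobase, was *Cdk4* (164), *Ccnb1* (125.5), *Ccna2* (84.9), *Ccnd3* (54.5), *Ccne1* (30.2), *Ccnd1* (28.7), *Cdkn1b* (11.2), *Ccne2* (8.19), *Cdk6* (4.46) and *Ccnd2* (0.522). Of the neighbours in that order, only *Ccne1* and *Ccnd1* overlapped between libraries. In 3xKD ESCs *Ccnd3* (91.0) overlapped *Ccna2* (89.8) in place 3, *Cdkn1b* (18.6) stood above *Ccnd1* (7.13), and *Ccnd1* overlapped *Ccne2* (6.43). In Neg EpiLCs *Ccne1* (42.9) stood above *Ccnd3* (29.6) and *Ccnd1* (22.2), with no overlap between neighbours anywhere in the order. In 3xKD EpiLCs *Ccnd3* (44.1) and *Ccne1* (42.4) overlapped, and *Cdkn1b* (12.4) was again above *Ccnd1* (6.63). *Cdk4* and *Ccnb1* were first and second in all 4 groups. The low place of *Cdk6*, at 1.12 CPM per kilobase in Neg EpiLCs and 1.06 in 3xKD EpiLCs, rests on its 11525-base transcript. Average effective lengths were shorter than the lengths used here for other genes too. In Neg ESCs they were 599 to 616 bases for *Cdk4* (2053 used) and 742 to 1583 for *Ccnd3* (2113 used). For *Ccne2* they were 833 to 1073 bases (3006 used), and its share of *Ccne1* plus *Ccne2* was 42.0% by TPM and 21.4% on this scale. The order thus holds for this scale only.

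Promoter sequences were read for the genes with a RefSeq entry. RefSeq (GRCm38.p6) had entries for 6 of the 10 genes, at 7 start sites. *Ccnd1*, *Ccnd2*, *Ccne2* and *Ccna2* were not analysed here. Of the 250 bases before each start, both strands were searched for the E-box CACGTG bound by MYC and related factors, the E2F site (TTTCCCGC, TTTCGCGC, TTTGCCGC or TTTGGCGC), the FOXO site TGTTTAC and the cAMP response element TGACGTCA. No 2 of these motifs overlap in the matches found. The strand of the gene is given from 5′ to 3′, with matches in capitals, for *Cdk6*, *Cdkn1b* and the outer start of *Ccnd3*, which were called in at least 1 comparison, and for *Cdk4*, which was called in none and is shown for its motif matches.
Cdk4, chr10:127063285-127063534: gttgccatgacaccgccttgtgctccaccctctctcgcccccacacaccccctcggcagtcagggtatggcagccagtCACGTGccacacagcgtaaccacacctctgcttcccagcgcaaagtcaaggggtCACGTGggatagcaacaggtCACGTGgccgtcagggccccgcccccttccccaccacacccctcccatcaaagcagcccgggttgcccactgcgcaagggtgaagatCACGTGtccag
Cdk6, chr5:3343643-3343892: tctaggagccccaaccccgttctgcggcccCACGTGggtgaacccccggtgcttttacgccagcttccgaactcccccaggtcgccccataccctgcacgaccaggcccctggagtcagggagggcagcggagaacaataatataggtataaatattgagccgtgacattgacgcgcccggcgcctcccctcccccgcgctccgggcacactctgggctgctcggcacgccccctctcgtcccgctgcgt
Cdkn1b, chr6:134920151-134920400: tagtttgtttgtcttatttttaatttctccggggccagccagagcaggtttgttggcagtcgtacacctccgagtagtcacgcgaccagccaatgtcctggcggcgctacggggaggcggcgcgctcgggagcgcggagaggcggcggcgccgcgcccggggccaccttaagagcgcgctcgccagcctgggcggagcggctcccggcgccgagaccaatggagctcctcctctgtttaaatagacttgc
Ccnd3, chr17:47504801-47505050: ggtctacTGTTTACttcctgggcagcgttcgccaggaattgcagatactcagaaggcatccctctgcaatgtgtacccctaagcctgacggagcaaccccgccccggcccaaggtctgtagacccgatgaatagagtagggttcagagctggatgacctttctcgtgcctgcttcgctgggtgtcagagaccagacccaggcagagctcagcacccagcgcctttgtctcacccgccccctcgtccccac
The *Cdk4* window held 4 E-boxes, the first letters of which lie 172, 118, 98 and 11 bases before the start, and the *Cdk6* window held 1, at 220 bases. An E-box was present in 6.02% of 32851 such windows. The outer *Ccnd3* start had 1 FOXO match, 243 bases before it, a motif held by 3.17% of windows. The *Cdkn1b* window, the inner *Ccnd3* start and the windows of *Ccne1* and *Ccnb1* held none of the 4 motifs, and E2F and cAMP response letters occurred in 1.86% and 1.55% of all windows. A match describes letters and not a bound site, and a window without one says only that these letters are not there.

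The wider cell cycle machinery was read from 4 lists, none of which holds a gene of the 10. Among 25 G1 regulators, 2 were called higher and 1 lower in 3xKD ESCs, where 15.3% of all genes were called. Their median log2 fold change was 0.02. The gene called lower was *E2f3*, an activating E2F factor (−0.77, SE 0.05, adjusted p = 3.1e-09). Those called higher were the CDK inhibitors *Cdkn2c* (0.60, adjusted p = 0.0059) and *Cdkn1c* (0.60, adjusted p = 0.00014). In 3xKD EpiLCs 1 was called higher and 5 lower, with a median of −0.26, where 13.2% of all genes were called. Lower were the inhibitors *Cdkn1c* (−0.84, SE 0.0703, adjusted p = 6.2e-08) and *Cdkn1a* (−0.75, SE 0.0497, adjusted p = 4e-09) and the repressor *E2f6* (−0.69, adjusted p = 3.8e-07). *Cdkn1a*, which encodes p21, stood at 97.0 CPM in Neg EpiLCs and 57.7 in 3xKD EpiLCs, where *Cdkn1b* was higher. In ESCs *Cdkn1a* stood at 161 CPM in Neg and 196 in 3xKD (0.28, adjusted p = 8.4e-05, not called), the same direction as *Cdkn1b*. The remaining genes called in 3xKD EpiLCs were named after their values were seen: *E2f3* (−0.66) and *Rb1* (−0.61) were lower and *Cdkn2c* (0.68) higher.

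Of 25 genes of S phase and replication licensing, 2 were called higher and 0 lower in 3xKD ESCs, and 2 and 0 in 3xKD EpiLCs, with medians of 0.07 and −0.08, against calls for 15.3% and 13.2% of all genes. By the limit on p alone, 14 of the 25 passed in ESCs and 18 passed in EpiLCs, as did 31.6% and 29.9% of all genes. Thymidine kinase, *Tk1*, was called in both states (0.69 in ESCs, SE 0.0667, adjusted p = 2.8e-07; 1.03 in EpiLCs, SE 0.0724, adjusted p = 8.3e-09). The others were *Mcm4*, of the replicative helicase, in ESCs (0.60, adjusted p = 2.1e-10) and *Chaf1b*, of chromatin assembly, in EpiLCs (0.64, adjusted p = 1.5e-09). Whether a called gene of this list lies on chromosome 16, which had a median of 0.30 in both states, was not examined. Of 29 genes of G2 and mitosis, 1 was called higher in 3xKD ESCs and 2 in 3xKD EpiLCs, with 0 lower in either and medians of 0.18 and 0.07. By the limit on p alone, 19 of the 29 passed in ESCs and 16 passed in EpiLCs. *Kif23*, a kinesin of cytokinesis, was called in both (0.66, adjusted p = 8.5e-11, and 0.60, adjusted p = 3.9e-10), and the securin gene *Pttg1* in EpiLCs (0.63, adjusted p = 6.2e-08).

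Of 30 other cyclins and CDKs, 3 were called higher and 2 lower in 3xKD ESCs, and 3 and 3 in 3xKD EpiLCs. Over all genes tested, 15.3% were called in ESCs and 13.2% in EpiLCs. *Ccng2*, an atypical cyclin known as a brake on proliferation, rose from 19.5 ± 1.62 to 59.2 ± 1.45 CPM in ESCs (log2 fold change 1.61, SE 0.0616, adjusted p = 8e-12). *Ccna1*, a cyclin best known from the germ line, was also higher in ESCs (1.60, adjusted p = 0.00056), at levels of 0.688 and 2.06 CPM, and *Cdk14* had 0.97 (adjusted p = 0.0015). In EpiLCs *Ccng1*, a p53 target, fell from 415 ± 26.9 to 186 ± 5.22 CPM (−1.16, SE 0.0428, adjusted p = 7.3e-12). *Ccno* fell from 22.8 ± 4.04 to 6.25 ± 0.927 CPM (−1.87, adjusted p = 8e-09), and *Ccna1* was again higher (1.47, adjusted p = 0.0053). The other called genes of this list were named after their values were seen: *Ccnc* (−0.80) and *Cdk12* (−0.75) in ESCs, and *Ccng2* (0.97), *Cdk18* (0.79) and *Ccnjl* (−0.88) in EpiLCs.

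**Figure D5:**
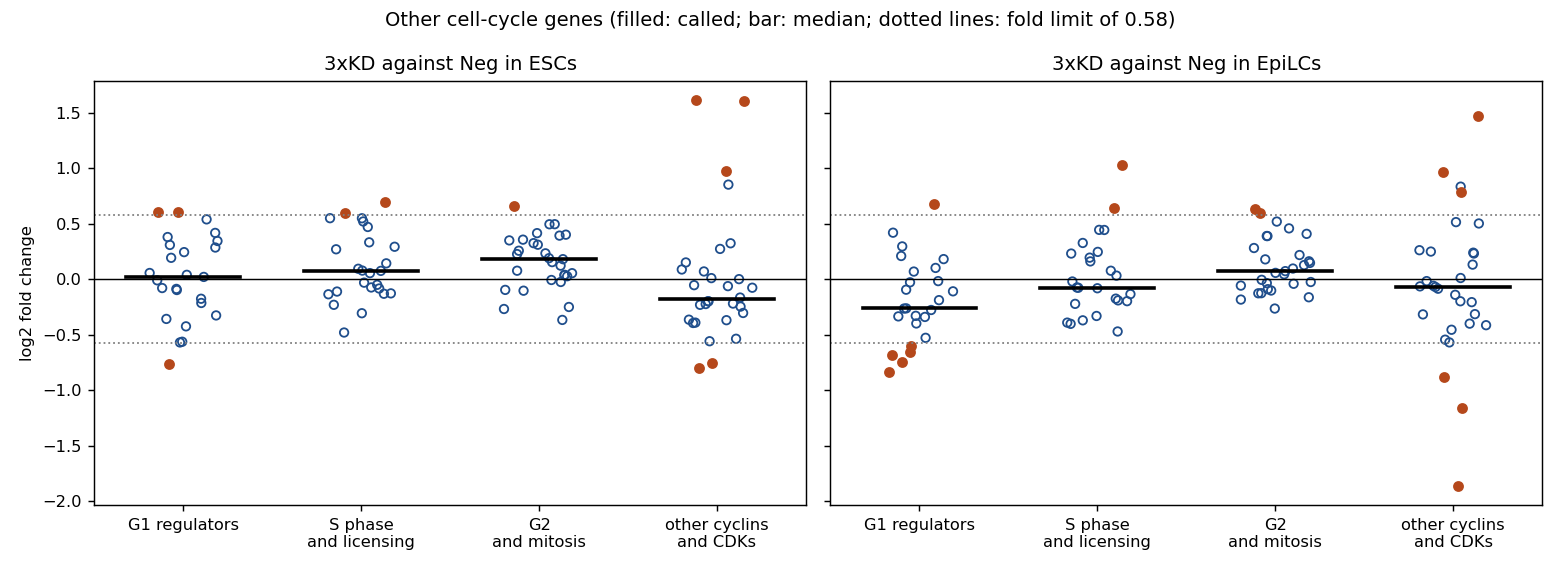
Log2 fold changes of 3xKD against Neg for the 4 lists of other cell cycle genes, with 1 point per gene, filled where called, bars at the list median and dotted lines at the limit of 0.58. The points of the S phase list and of the G2 and mitosis list lie mostly between the dotted lines, with medians of 0.07 and 0.18 in ESCs.

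The G1 regulators were also compared over the transition. From ESCs to EpiLCs in Neg, 7 of the 25 were called higher and 6 lower, and in 3xKD 5 higher and 7 lower, where 20.8% of all genes were called in Neg and 18.7% in 3xKD. *Cdkn1c*, the gene of the inhibitor p57, rose from 5.58 ± 0.537 to 61.8 ± 3.87 CPM in Neg (3.48, SE 0.0875, adjusted p = 5.1e-15) and from 8.38 ± 0.876 to 34.6 ± 1.45 in 3xKD (2.04, SE 0.0830, adjusted p = 3.9e-12). *Cdkn2c* fell by 1.28 in Neg (adjusted p = 1.7e-05) and by 1.21 in 3xKD (adjusted p = 1.3e-05) on the log2 scale. *Tfdp2*, the dimer partner of E2F factors, had 1.18 in Neg (adjusted p = 8.5e-13) and 1.08 in 3xKD. *Cdkn1a* had −0.73 in Neg and −1.77 in 3xKD (adjusted p = 3e-14), and both genes were called in both lines. Of the S phase list 0 were called higher and 1 lower in Neg (*Tk1*, −0.98, adjusted p = 7.5e-09), and 0 and 2 in 3xKD (*Rrm2*, −0.80, and *Tk1*, −0.64). Of the list of G2 and mitosis 1 was called higher and 3 lower in Neg, the lower ones being *Mybl2* (−1.0), *Pttg1* (−0.84) and *Cdc25c* (−0.71), and 0 and 1 in 3xKD (*Mybl2*, −0.76). Of the other cyclins and CDKs, 3 were called higher and 4 lower in Neg, led by *Ccno* (2.29), *Cdk18* (−1.41) and *Cdk14* (1.32), and 3 and 2 in 3xKD, led by *Ccnb3* (2.62, at 0.169 and 1.07 CPM), *Ccna1* (−1.19) and *Cdk12* (1.03). *Cdk18* (−0.89) and *Cdk14* (0.86) were also called in 3xKD, and *Cdk12* (0.60) also in Neg.

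Genes with a like pattern were found as the smallest Euclidean distance between the 4 group means of log2 CPM, each gene centred on its own mean, among the 15032 genes that averaged 1 CPM or more. The distance is a description over 4 group means. For *Ccnd3* the nearest were *Tmem35b* (0.0381) and *Ptprm* (0.0440), and for *Cdkn1b* they were *Efna2* (0.0378) and *Aldoa* (0.0431), the aldolase of glycolysis. For *Cdk6* they were *Mob3c* (0.134) and *Sh3gl2* (0.137), and for *Ccnd2* *Tmem252* (0.133) and *Fjx1* (0.232). *Ccnd1* had no gene as near as these, its closest being *Gm56350* at 0.396 and *Cpb2* at 0.401.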

How the data were processed

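The authors sequenced rRNA-depleted, directional libraries as single-end reads, and by their processing notes used bcl2fastq, Trim Galore 0.6.7, STAR 2.7.9a and Salmon 1.10.1 on GRCm39. They deposited, for each library, a Salmon table with estimated counts (NumReads), TPM and transcript lengths per transcript. The 10 genes and the lists were chosen with earlier results of these data known. Estimated counts were summed per gene by the deposited transcript-to-gene table and rounded, and genes with fewer than 10 counts over the 12 libraries were left out. edgeR 4.0.16 (R 4.3.3) fitted all 12 libraries with 1 mean per group and TMM factors, and its quasi-likelihood test compared the groups. Called genes had an adjusted p under 0.01 and a log2 fold change over 0.58 in size. The difference between states used the adjusted p alone. Groups came from the sample titles, since the cell type field of the labels goes against them. The molecule field of the labels gives polyA RNA, and the protocol rRNA depletion.

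Alternatives were DESeq2 1.42.0, other scalings and filters, transcript-length offsets, a replicate block and the fit without each library. Shares of TPM and of transcripts were compared by exact two-sided permutation. CPM per kilobase was added after seeing the data. Guides were compared with GRCm39 and the GENCODE vM39 annotation, and transcripts that share at least 300 bases at 90% identity were found with blastn 2.17.0. From each of the 4 lists, the 3 called genes with the largest change in each comparison were named, and for each called gene of the 10 the 2 nearest patterns. The depth of 11221023 to 19652197 counts per library sets the precision, and intervals on single counts would cover counting error only.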

Additional observations from a re-analysis of the deposited data

Results flagged for a closer look

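The response to the knockdown was compared between ESCs and EpiLCs for the 10 genes and 25 named genes of the cell cycle lists, by edgeR's quasi-likelihood test of the difference with Benjamini-Hochberg adjustment over all genes. Of the 10 genes 1 passed, and of the 25 named genes, which were named because they were called in a comparison, 12 passed, where 10% of all genes did. Over the whole lists, 7 of 25 G1 regulators, 6 of 25 genes of S phase, 8 of 29 of G2 and mitosis and 7 of 30 other cyclins and CDKs passed. Values are the log2 fold change of 3xKD against Neg in EpiLCs minus that in ESCs. Among the 10 genes it was *Cdk6*, with 0.60 (adjusted p = 0.00048) and a range of 0.55 to 0.64 when single libraries were left out. With transcript-length offsets it had 0.70 (adjusted p = 0.22), and 731 of all genes passed in place of 2553. Among G1 regulators, *Cdkn1c* had −1.44 (adjusted p = 6.1e-07), *Cdkn1a* −1.03 (adjusted p = 2.4e-08) and *E2f6* −0.60 (adjusted p = 0.00036), and the retinoblastoma gene *Rb1* had −0.51 (adjusted p = 0.00041). Among other cyclins and CDKs, *Ccno* had −1.81 (adjusted p = 1e-05), *Ccng2* −0.65 (adjusted p = 5.2e-05), *Ccng1* −0.62 (adjusted p = 2e-06), *Ccnc* 0.49 (adjusted p = 0.00065) and *Cdk12* 0.43 (adjusted p = 2e-05). Among genes of S phase and mitosis, *Rrm2* had −0.31 (adjusted p = 0.00035), *Pttg1* 0.31 (adjusted p = 0.0069) and *Mybl2* 0.24 (adjusted p = 0.0021). *Cdkn1c* went from 8.38 to 34.6 CPM in 3xKD and from 5.58 to 61.8 CPM in Neg, so it was above Neg in ESCs and below Neg in EpiLCs. With 3 libraries per group, no test for an outlying library was made.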

How the results depend on the processing

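With an adjusted p under 0.05 and no limit on size, 10142 genes passed in 3xKD against Neg in ESCs, 9694 in EpiLCs, 11231 in the transition of Neg, 10838 in that of 3xKD and 4127 in the difference between states, in place of 3885, 3367, 5292, 4768 and 2553. Of the 10 genes, 7 then passed in EpiLCs, 8 in each transition and 2 in the difference. Transcript-length offsets left 2 of the 10 called in ESCs (in place of 4), and 0 of the 10 and 731 of all genes in the difference. Without the filter 3 of the 10 passed in the difference, and without single libraries 1 to 2 did, with 2 without Neg ESC replicate 1 (*Ccnd2*) or Neg EpiLC replicate 1 (*Ccnd3*, −0.23, adjusted p = 0.0083). Length offsets reversed the log2 fold change in ESCs of *Ccnd2* (−1.09), *Ccne1* (0.0305) and *Cdk6* (0.19), in EpiLCs of *Ccne1* (0.0896) and *Cdk6* (0.89), in the Neg transition of *Ccna2* (0.0077), and in the difference of *Ccnd3* (0.66) and *Cdk4* (−0.0569). Library size alone reversed *Ccne1* in EpiLCs (0.0412) and *Ccnb1* (0.0506) and *Cdkn1b* (0.0107) in the difference, no filter *Ccne1* in EpiLCs (0.0137) and *Ccnb1* in the difference (0.0025), and upper-quartile factors *Ccna2* in the Neg transition (0.0406). Without single libraries, values crossed 0 for *Ccnd2* in ESCs (−0.10 to 0.23), *Ccne1* in EpiLCs (−0.0527 to 0.03) and in the difference (−0.0138 to 0.0837), and *Ccna2* in the transitions of Neg (−0.0559 to 0.0144) and 3xKD (−0.0357 to 0.0636). All of these but *Cdk6* in EpiLCs with length offsets had values that were not called. On the scale of shares, *Ccnd2* in ESCs differed by 0.00194 points with CPM, and *Cdk6* in Cdk4 plus Cdk6 by −3.05 points with CPM and −0.665 with CPM per kilobase, in place of 1.20 with TPM. *Ccne1* was called in 1 or both transitions under upper-quartile factors, length offsets and, in 3xKD, 4 other settings. The calls of *Ccnd1* in both states, of *Cdkn1b* in both states and of *Ccnd2* in both transitions kept their direction and their side of the threshold in every alternative. The replicate numbers did not pair the libraries (correlations of −0.135 to 0.0999), and with a replicate block 3792 genes were called in ESCs, 3277 in EpiLCs, 5169 and 4664 in the transitions and 2321 in the difference, with 4, 3, 3, 4 and 1 of the 10 called as without it. The cause of these changes was not tested. *Ccnd2* in ESCs rests on 38 to 58 counts per library, so small changes of it were not detectable at this depth. Splits between transcripts are estimates from shared reads, and those of *Ccne2* and *Ccnd3* varied widely among replicates.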
